A study of Mus musculus with 2 samples.

Results

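Genes of cholesterol, fatty acid and sphingolipid metabolism were compared between 2 cell populations of mouse dorsal skin. The set held 44 genes: 20 of sterol synthesis, control, modification and transport, 21 of fatty acid and lipid droplet metabolism, and 3 of sphingolipid synthesis. Its members were found by name, as the non-control probes whose gene name in the scanner tables was a listed gene or a synonym, and all 44 had at least 1 of 85 probes on the array. Of 27729 named genes or transcripts on the array, 6195 were bright enough to compare, among them 24 of the 44.

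The Lgr5-high population came from dorsal skin of Lgr5-EGFP-ires-CreERT2 knock-in mice and the Lgr6-high population from Lgr6-EGFP-ires-CreERT2 knock-in mice, each sorted for bright green fluorescent protein. Lgr5 and Lgr6 encode related R-spondin receptors that mark different stem cells of the hair follicle. Both populations therefore carried a reporter and an inducible Cre recombinase, with the fluorescent protein driven by the promoter of Lgr5 or Lgr6, and the labels used here give no treatment, age or sex. Each sort pooled 3 mice, and both populations were hybridised together on 2 two-colour Agilent arrays with exchanged dyes. On array 1 the Lgr6-high RNA carried Cy5 and on array 2 it carried Cy3.

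Whether the arrays held separate RNA pools is not stated in the labels, so the pair counted as 1 replicate and no test between the populations was possible. Values are log2 ratios, positive where the Lgr6-high signal was larger, on arrays 1 and 2, then their mean ± SD, which covers the 2 hybridisations and no variation between mice. A gene was called where the mean ratio was at least 1 on the log2 scale (2-fold) and the ratio at least 0.5 in the same direction on both arrays. In such bulk samples a higher share of cells that express a gene and more of its RNA per cell cannot be told apart. The Lgr5 transcript itself measured -1.74 and -1.92 on arrays 1 and 2, while Lgr6 was too dim to compare.

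Cholesterol is built from acetyl-CoA through mevalonate, isoprenoids, squalene and lanosterol. The pathway is driven by the transcription factor SREBP-2 and held back by the Insig proteins when sterols are plentiful, while SREBP-1 chiefly drives fatty acid synthesis. In skin, keratinocytes make cholesterol, long-chain fatty acids and ceramides for the permeability barrier, and sebaceous gland cells store neutral lipid that becomes sebum.

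Of the 24 members that could be compared, 4 passed the size rule toward Lgr6-high cells and 1 toward Lgr5-high cells. The 4 were Ch25h, the enzyme that makes 25-hydroxycholesterol, Hmgcs1, the cytosolic HMG-CoA synthase of the mevalonate pathway, Acsl1, which activates long-chain fatty acids to their acyl-CoA esters, and Cidea, a lipid droplet protein. Scd2, a stearoyl-CoA desaturase, was higher in Lgr5-high cells. Among all measured genes 7.28% were called higher in Lgr6-high cells, 4.76% in Lgr5-high cells and 12.0% in either direction, against 16.7%, 4.17% and 20.8% of the members. The share toward Lgr5-high cells thus lay at the background. Ch25h and Scd2 also kept their calls in each alternative processing that left them among the measured genes, whereas Hmgcs1, Acsl1 and Cidea lost theirs in 3 of the alternatives and Cidea also on array 1 alone. Requiring both populations above background left neither Ch25h, Scd2, Acsl1 nor Cidea among the measured genes.

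**Figure D1:**
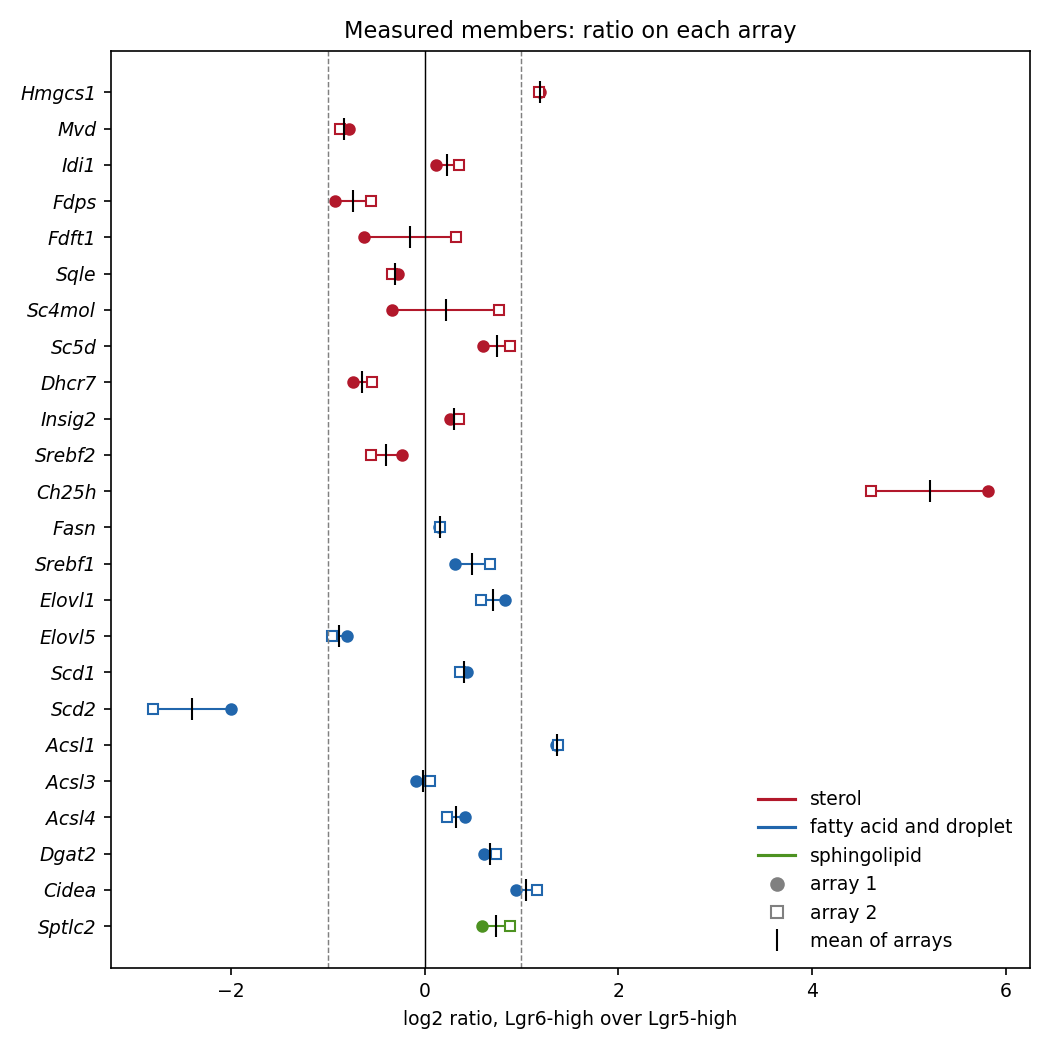
Log2 ratio of Lgr6-high over Lgr5-high (x axis) for the 24 measured members, with array 1 as filled circles, array 2 as open squares and their mean as a bar; dashed lines mark 2-fold. Ch25h stands at 5.22 and Scd2 at -2.40, and the other 22 means lie between -0.88 and 1.37.

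The probes behind the called genes other than Cidea are shown because each of these results rests on 1 passing 60-base probe. Further probes, too dim to pass, gave mean ratios of 0.34 and 0.24 for Acsl1 and of 0.19 and 0.03 for Hmgcs1. The lines give the first 30 bases of each as the scanner files hold them, with the probe of Scd1 beside that of its paralog Scd2; no part is capitalised. The files place the probes on mouse build mm9 and do not say whether they lie in coding or untranslated sequence.
Ch25h: ctatgtatgaaatcgcactggaactgggct
Hmgcs1: tatgttttgaaaagagtaattttaacgttt
Acsl1: gcctaacttcatactcgtattcttaattgc
Scd2: acatttggggatcctctgcagaggagtatt
Scd1: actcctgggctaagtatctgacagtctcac
Over their full length, the Scd1 and Scd2 probes matched at no more than 21 of 60 bases in any ungapped alignment with at least 20 bases of overlap. The match of either probe to the other gene's transcript was not examined, so this does not show that the probes are specific. The Ch25h probe lies at chr19:34548418-34548477 on the minus strand, and those of Scd2 and Scd1 at chr19:44381024-44381083 on the plus strand and chr19:44469387-44469446 on the minus strand. The Acsl1 probe lies at chr8:47621232-47621291 on the plus strand. The Hmgcs1 probe was placed on an unplaced part of chromosome 13 in that build. The 2 probes named Idi1 lie on chromosome 2 by the same coordinates.

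Ch25h was well above background on both arrays in Lgr6-high cells and on neither in Lgr5-high cells. Its log2 signal in Lgr6-high cells was 11.53 and 11.75 on arrays 1 and 2. In Lgr5-high cells it was 5.71 and 7.13. The ratios were 5.82 and 4.61, a mean of 5.22 ± 0.85. The Lgr5-high level was not well above background on either array, so the fold has no exact value. The fold was 34.6 when set against the higher of the probe's own level and the dimmest signal that counted as well above background. That value holds for the reported processing and is no strict bound. In Lgr5-high cells on array 1, Cidea counted as above background at 6.30 and Nsdhl did not at 6.40. The mean log2 ratio of Ch25h was 4.15 without background subtraction, 3.67 with the background model on all spots and 8.52 by the scanner's ratios. Ch25h was the 1 measured member of 4 that modify, store or carry sterols. The others were Soat1, which esterifies cholesterol, Abca1, the cholesterol exporter, and Stard4, a sterol carrier.

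**Figure D2:**
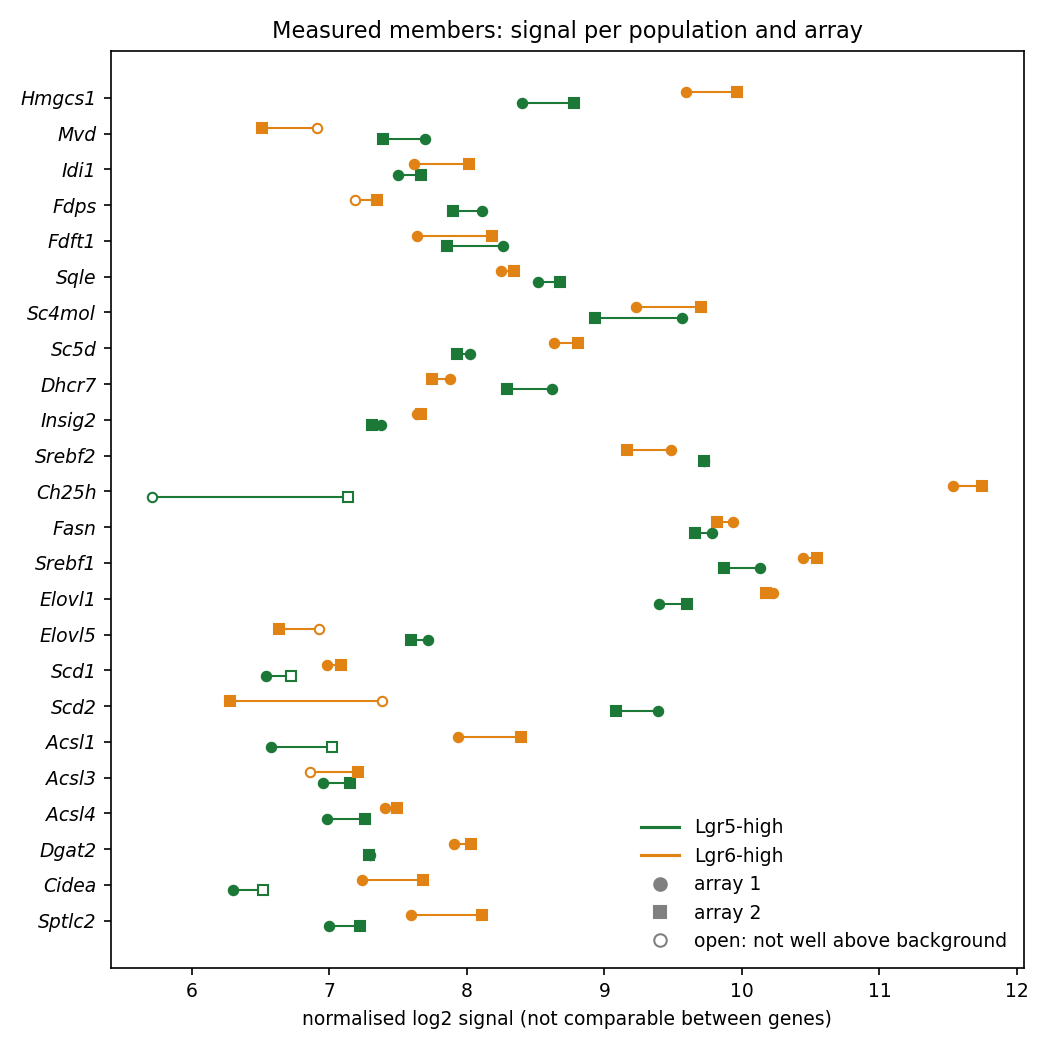
Normalised log2 signal (x axis) of the 24 measured members in Lgr5-high (green) and Lgr6-high (orange) cells, with array 1 as circles and array 2 as squares; open symbols were not well above background, and signals cannot be compared between genes. For Ch25h the Lgr5-high signals of 5.71 and 7.13 are both open, against 11.53 and 11.75 in Lgr6-high cells.

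Among 13 enzymes of sterol synthesis 9 were measured, 1 was called and the remaining 8 stayed under 2-fold, in both directions. Hmgcs1, which condenses acetyl-CoA with acetoacetyl-CoA, had log2 signals of 9.59 and 9.97 in Lgr6-high cells and of 8.40 and 8.78 in Lgr5-high cells. Its ratios were 1.19 on both arrays. Sc5d, the lathosterol oxidase late in the pathway, leaned the same way at 0.61 and 0.88, and Idi1, the isopentenyl diphosphate isomerase, at 0.12 and 0.35.

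Other enzymes had more signal in Lgr5-high cells without passing 2-fold. Mvd, which decarboxylates mevalonate diphosphate, measured -0.78 and -0.88 (mean -0.83 ± 0.07). Fdps, the farnesyl diphosphate synthase, measured -0.93 and -0.56, and in Lgr6-high cells both exceeded background on array 2 alone. Dhcr7, which completes cholesterol, measured -0.74 and -0.54, and the squalene epoxidase Sqle -0.27 and -0.33. These 4 had the same sign on both arrays. Fdft1, the squalene synthase, and Sc4mol, the sterol C4-methyl oxidase now named Msmo1, did not: they measured -0.63 and 0.33, and -0.33 and 0.77.

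**Figure D3:**
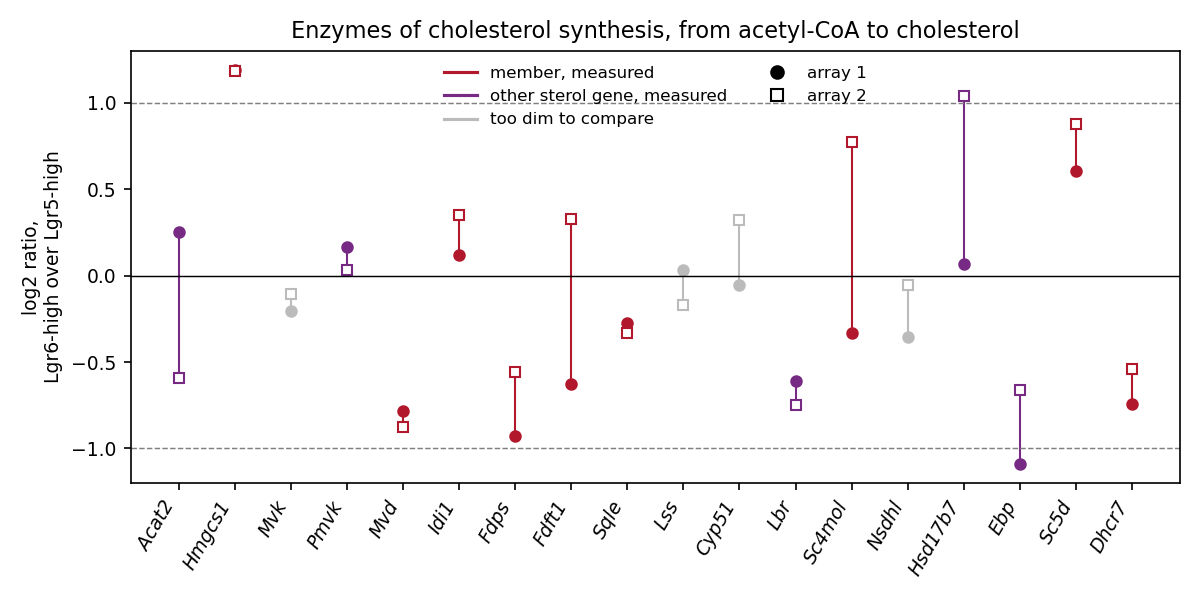
Log2 ratio of Lgr6-high over Lgr5-high (y axis) for enzymes of cholesterol synthesis in pathway order (x axis), with array 1 as filled circles and array 2 as open squares; red are members, purple are other enzymes of the pathway and grey were too dim to compare. Of the enzymes drawn, Hmgcs1 is the one past the dashed 2-fold lines on both arrays, and ratios of both signs occur early and late in the pathway.

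Of the sterol control genes, Insig2, which retains the SREBP escort protein in the endoplasmic reticulum, measured 0.26 and 0.36. Srebf2, which encodes SREBP-2, measured -0.24 and -0.56 by its brighter probe. Its second passing probe gave -0.43 on array 1 and 0.82 on array 2, so the 2 probes disagreed on array 2. Insig1 was too dim to compare.

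The other sterol genes, 29 listed for this comparison from general knowledge of the pathway, gave 18 measured genes with 1 call in each direction. That was 11.1%, beside 12.0% of all measured genes. Scarb1, the receptor for high density lipoprotein, was higher in Lgr5-high cells, at -1.18 and -1.23. Late enzymes that were not called included Ebp at -1.09 and -0.66 and Lbr at -0.61 and -0.75. Hsd17b7, also a late enzyme and not called, went the other way at 0.07 and 1.04. The median ratio of the 18 genes was 0.05, beside -0.05 for all measured genes.

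Of 21 fatty acid and droplet genes 11 were measured. Of these 3 (27.3%) were called, 2 toward Lgr6-high and 1 toward Lgr5-high cells, beside 12.0% of all measured genes. Of 4 genes of fatty acid synthesis and its control 2 were measured and neither was called. Fasn, the fatty acid synthase that makes palmitate, measured 0.15 and 0.16, and Srebf1, which encodes SREBP-1, measured 0.31 and 0.68. Acly and Acaca, which supply acetyl-CoA and malonyl-CoA, were too dim to compare.

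The desaturases differed in direction. Scd2 had log2 signals of 9.39 and 9.08 in Lgr5-high cells and of 7.39 and 6.28 in Lgr6-high cells, where only array 2 exceeded background. Its ratios were -2.00 and -2.81, a mean of -2.40 ± 0.57 or 5.30-fold higher in Lgr5-high cells. That size depended on the processing, with a log2 ratio of -1.78 without background subtraction, -1.32 with the background model on all spots and -4.17 by the scanner's ratios. Scd1, the desaturase of sebaceous glands and liver, measured 0.44 and 0.37 (mean 0.40 ± 0.05) and was not called. Its log2 signals were 6.98 and 7.09 in Lgr6-high cells and 6.54 and 6.72 in Lgr5-high cells, above background there on array 1 alone. In the reported processing Scd1 and Scd2 thus had opposite signs on both arrays, a difference that was not tested. Under median centring Scd1 measured -0.10 on array 1 and 1.36 on array 2. Fads1 and Fads2, which desaturate polyunsaturated fatty acids, were above background only in Lgr5-high cells on array 1.

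Elongases also stood on both sides. Elovl1, which makes very long saturated chains, measured 0.83 and 0.58 (mean 0.70 ± 0.18). Elovl5, an elongase of polyunsaturated fatty acids, measured -0.80 and -0.96 (mean -0.88 ± 0.11), and its Lgr6-high signal exceeded background on array 2 alone. Neither was called. Elovl3, Elovl4 and Elovl6 were too dim to compare.

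Among the genes that activate or bind fatty acids, Acsl1 was called. Its log2 signals were 7.94 and 8.40 in Lgr6-high cells and 6.58 and 7.02 in Lgr5-high cells, where it was above background on array 1 alone. The ratios were 1.36 and 1.38, a mean of 1.37 ± 0.01 or 2.59-fold. Its relatives Acsl3, at -0.09 and 0.06, and Acsl4, at 0.42 and 0.23, were not called, and a second passing probe of Acsl4 gave 0.33 and 0.80. Fabp5, the epidermal fatty acid-binding protein, was at background in all 4 channels by its 1 probe.

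Of 4 triglyceride and droplet genes 2 were measured and 1 was called. Cidea had log2 signals of 7.24 and 7.68 in Lgr6-high cells and of 6.30 and 6.51 in Lgr5-high cells, above background there on array 1 alone. Its ratios were 0.94 and 1.16, a mean of 1.05 ± 0.16 or 2.07-fold. This was the smallest called ratio of the set, and array 1 alone left it under 2-fold. Dgat2, which makes triglyceride from diglyceride, measured 0.61 and 0.74 (mean 0.68 ± 0.09). Dgat1 and the adipogenic and sebocyte regulator Pparg were too dim to compare.

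The fatty acid and droplet genes outside the set were read from 2 further lists. Over all measured genes 7.28% were called higher in Lgr6-high cells. Of 37 other fatty acid genes 15 were measured, and 2 (13.3%) were called, both in that direction. They were Slc27a3, a fatty acid transport protein, at 1.36 and 1.5, and the elongase Elovl7, at 0.72 and 1.42. Of 30 other triglyceride and droplet genes 10 were measured and 2 (20%) called, again toward Lgr6-high cells. Mgll, the monoglyceride lipase, measured 1.70 and 2.20, and Hilpda, a droplet protein that inhibits lipolysis, 0.85 and 1.40. The droplet coat genes Plin2, at 0.84 and 0.24, and Plin3, at 0.81 and 0.15, were not called.

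Of the 3 sphingolipid members 1 was measured. Sptlc2, a subunit of serine palmitoyltransferase, which starts sphingolipid synthesis, measured 0.60 and 0.89 (mean 0.74 ± 0.21) and was not called. Its partner subunit Sptlc1 and the glucosylceramide synthase Ugcg were too dim to compare. Of 28 other sphingolipid genes 10 were measured and 3 (30%) were called, beside 12.0% of all measured genes. Sgms1, a sphingomyelin synthase, at 2.12 and 1.49, and the sphingosine kinase Sphk1, at 1.20 and 2.0, were higher in Lgr6-high cells. The ceramide synthase Cers4, at -0.95 and -1.15, was higher in Lgr5-high cells.

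Sterol genes were then set beside fatty acid and droplet genes. The 12 measured sterol genes had a median ratio of 0.03 and the 11 fatty acid and droplet genes one of 0.40, against -0.05 for all genes. On array 1 the 2 medians were -0.25 and 0.42, and on array 2 they were 0.34 and 0.37. The gap therefore rested on array 1, at -0.67, and was -0.03 on array 2. Among the sterol genes 5 were positive and 5 negative on both arrays and 2 changed sign. Among the fatty acid and droplet genes the counts were 8, 2 and 1, and over all genes 2096, 2394 and 1705. No test was made of these medians, since the genes were chosen with results known.

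**Figure D4:**
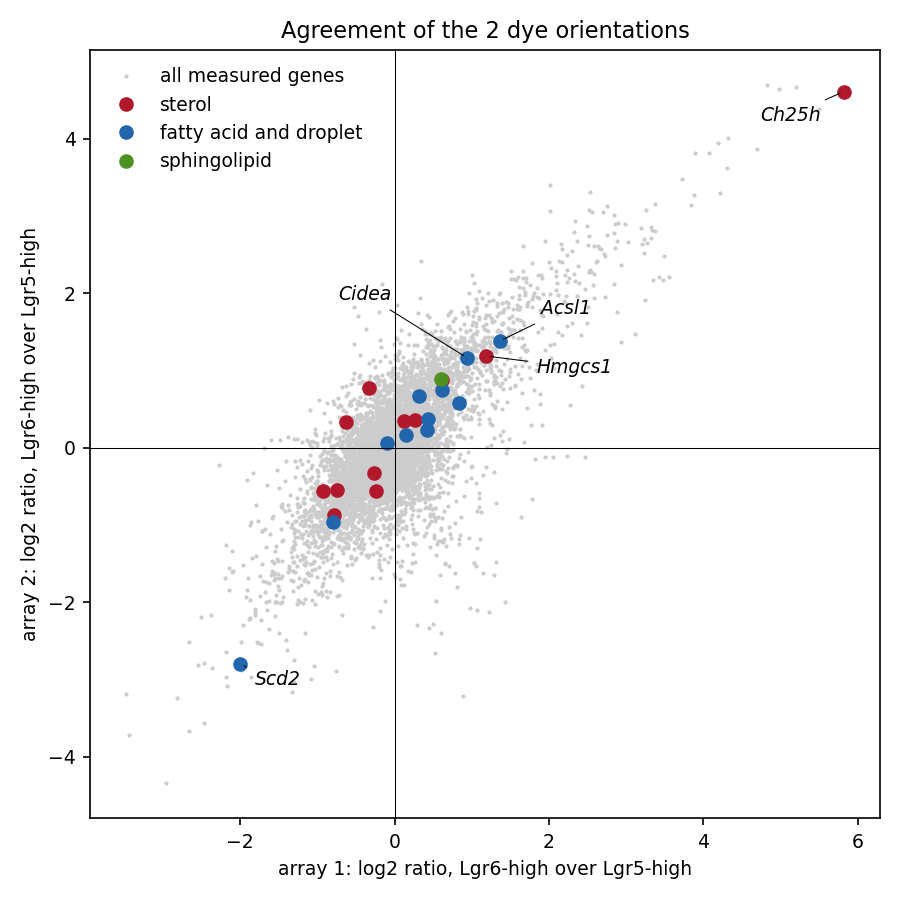
Log2 ratio of Lgr6-high over Lgr5-high on array 1 (x axis) and array 2 (y axis) for all 6195 measured genes (grey) and the members by class (colours), with the 5 called members named. Ch25h, Hmgcs1, Acsl1 and Cidea lie in the upper right and Scd2 in the lower left, while Fdft1, Sc4mol and Acsl3 have opposite signs on the arrays.

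For the 20 members that were not compared, detection differed by dye. Over the whole array, Cy3 detected 31.6% (array 1) and 33.3% (array 2) of the probe spots and Cy5 detected 15.3% and 16.2%. For 10 of them (Mvk, Cyp51, Soat1, Abca1, Stard4, Acly, Elovl6, Dgat1, Ugcg and Sptlc1) the brightest probe was well above background in both populations when these carried Cy3 and in neither when they carried Cy5. For 6 more (Lss, Insig1, Elovl4, Fads1, Fads2 and Pparg) that held for 1 population. Nsdhl, Acaca, Elovl3 and Fabp5 were at background in all 4 channels by every probe. Mean ratios of the brightest probes of the 20 lay between -0.42 and 0.36.

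Promoters were examined for what members share in sequence. RefSeq (build GRCm38.p6) gave start sites for 32 of the 44 genes, and the 250 bases before each start were searched on both strands. The core of the sterol regulatory element, TCACNCCAC, occurred at 2 of the 32 genes (6.25%), Hmgcs1 and Acsl1, and at 1.22% of all 27025 genes in the table. Both are among the called genes. The NF-Y box CCAAT occurred at 14 of 16 sterol genes (87.5%), at 7 of 13 fatty acid and droplet genes (53.8%) and at 37.5% of all genes. In these classes it was found at 8 of 9 and 6 of 7 measured genes, whatever the direction of their ratio. A match is a description of the sequence and does not show a bound factor. The promoters of Hmgcs1 (chr13:119690101-119690350) and Acsl1 (chr8:46490716-46490965), both on the plus strand, are shown because they hold that element, which is in capitals and reads on the opposite strand in Acsl1.
Hmgcs1: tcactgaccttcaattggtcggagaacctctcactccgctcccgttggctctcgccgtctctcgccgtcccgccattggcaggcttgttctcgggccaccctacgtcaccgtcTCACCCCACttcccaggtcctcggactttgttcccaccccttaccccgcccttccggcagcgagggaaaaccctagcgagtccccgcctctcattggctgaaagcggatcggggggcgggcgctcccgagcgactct
Acsl1: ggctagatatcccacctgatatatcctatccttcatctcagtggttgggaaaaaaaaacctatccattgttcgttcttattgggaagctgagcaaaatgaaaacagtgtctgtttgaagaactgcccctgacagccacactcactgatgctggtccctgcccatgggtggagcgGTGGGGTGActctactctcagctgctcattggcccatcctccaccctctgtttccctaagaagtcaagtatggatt
The element begins 137 bases before the start of Hmgcs1 and 76 bases before that of Acsl1.

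Markers of other lipid-rich or stromal skin cells were read beside these values. All 8 adipocyte markers, among them Adipoq, Fabp4 and Plin1, were at background in every channel. Of 7 sebocyte markers on the array 5 were at background throughout, including the melanocortin receptor Mc5r and the wax synthase Awat2. Krt79, also a keratin of the upper follicle, was the 1 measured and was higher in Lgr6-high cells, at 1.69 and 2.01. The summed signal of the list was 1391 and 1697 in Lgr6-high and 707 and 710 in Lgr5-high cells. With Krt79 as its 1 measured marker, this sum does not compare sebocytes between the populations. Of 8 leukocyte and macrophage markers none was measured, and Ptprc, Cd68 and Lyz2 were among 6 at background throughout. That list's summed signal was 601 and 566 in Lgr6-high and 592 and 616 in Lgr5-high cells. Summed signals, here and below, include the signal of markers at background. A sum over a list with no measured marker therefore does not compare the populations. Macrophages are a known source of Ch25h, and their part in its ratio was not tested.

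Markers of dermal fibroblasts were read in the same way. Of 6 measured markers 4 (Col1a1, Col1a2, Col3a1 and Dcn) were higher in Lgr5-high cells, with a list median of -2.36, and the summed signal of the 8 on the array was 3475 and 2153 in Lgr5-high and 998 and 633 in Lgr6-high cells. Of 6 endothelial markers 2 were measured and both (Ramp2 and Egfl7) were higher in Lgr5-high cells, with sums of 1006 and 803 against 504 and 385. All 4 measured suprabasal keratinocyte markers were higher in Lgr6-high cells, with a median of 2.37, and so were 3 of 6 basal markers (Col17a1, Itga6 and Itgb4). The basal keratins Krt14, at 2.24 and -0.10, and Krt5, at 1.82 and -0.15, changed sign between the arrays, and Trp63 measured 0.18 and 0.68. Basal sums were 191247 and 93763 in Lgr6-high and 50319 and 94134 in Lgr5-high cells, so they differed on array 1 and hardly on array 2. Over all measured genes 4.76% were called higher in Lgr5-high and 7.28% in Lgr6-high cells. The part of these markers in the lipid genes' ratios was not tested.

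**Figure D5:**
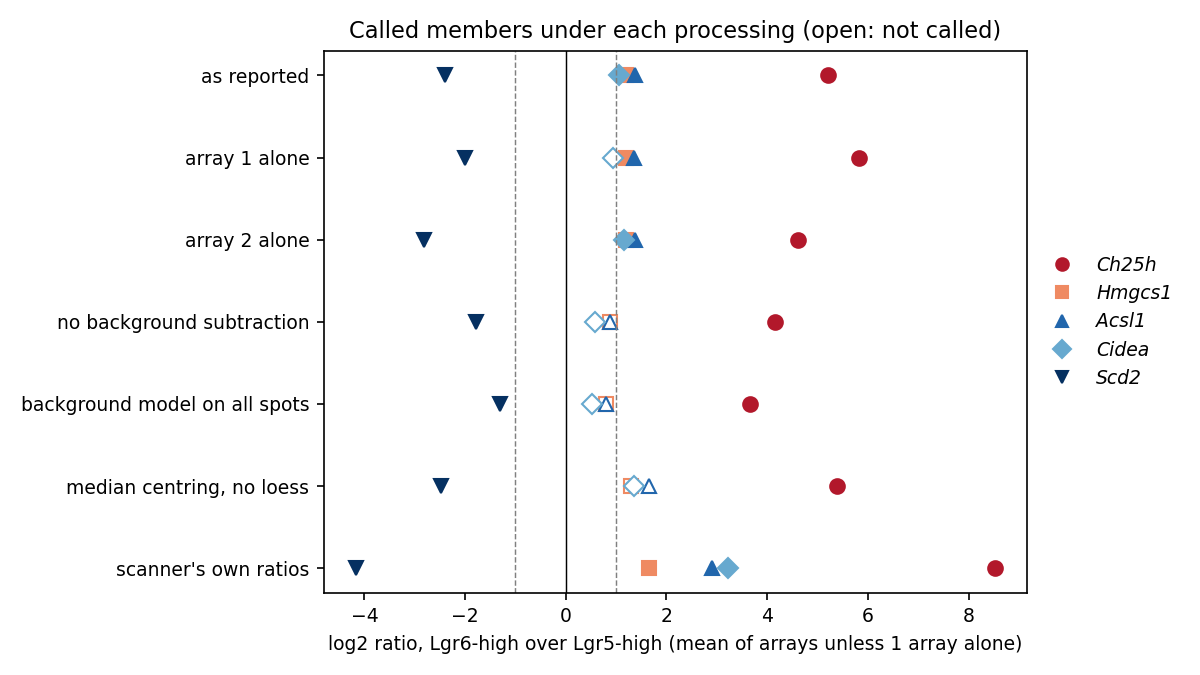
Log2 ratio of Lgr6-high over Lgr5-high (x axis) of the 5 called members under the reported processing and 6 alternatives (rows); filled symbols were called and open symbols were not. Ch25h and Scd2 are filled in all 7 rows, while Hmgcs1, Acsl1 and Cidea are open without background subtraction, with the background model on all spots and with median centring, and Cidea also from array 1 alone.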

How the data were processed

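Members and gene lists were chosen with earlier results of these data known. Intensities in the deposited scanner tables are the mean signal of each spot and its median local background, extracted per the file headers with Agilent Feature Extraction 10.5.1.1 (9.5.3 per the submitters' processing notes). They also hold a log10 ratio deposited for each spot, and the authors' value table holds log10 ratios equal to these, turned on array 2. The value table has medians of 0 and was used as an alternative.

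From the intensities, background was corrected in limma 3.58.1 with normexp (offset 50), fitted without outlier-marked spots (139 and 204 probe spots on arrays 1 and 2) because a fit on all spots gave an array 2 Cy5 background SD of 387 in place of 2.43. Loess within arrays followed, with controls at weight 0, and Aquantile for signals per population. Marked spots were left out and spots of a probe averaged. Probes well above background for at least 1 population on both arrays were kept, and the brightest represented its gene. Of 41173 probes, 25096 were named by RefSeq accession, 6333 by symbol and 1640 by synonym. All 44 members were to be accounted for, and other genes named where called. Ebp, Lbr, Hsd17b7, Plin2, Plin3, Krt5, Krt14 and Trp63 were named after their values were seen. Some genes of the comparison lists are not reported here by name. No spot was saturated, and 2 arrays limit precision.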

Additional observations from a re-analysis of the deposited data

How the results depend on the processing

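Calls depended on scaling, and the cause was not tested. Without background subtraction, with the background model on all spots and with median centring, 1 member (Ch25h) stayed called higher in Lgr6-high cells, against 4. Hmgcs1 then measured 0.89, 0.80 and 1.30, Acsl1 0.89, 0.80 and 1.65, and Cidea 0.58, 0.53 and 1.36. Under median centring Hmgcs1 was -0.71 on array 1 and 3.30 on array 2. The scanner's ratios and the authors' value table called 7 members higher in Lgr6-high cells (adding Dgat2, Scd1 and Sptlc2) and 4 in Lgr5-high cells (adding Elovl5, Fdps and Mvd). With both populations above background, 15 members were measured, 1 (Hmgcs1) was called higher in Lgr6-high cells and 0 in Lgr5-high cells, since Ch25h and Scd2 then dropped out. Single arrays called 3 to 4 members toward Lgr6-high cells and 1 toward Lgr5-high cells.

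Over all genes, calls toward Lgr6-high and Lgr5-high cells were 212 and 204 without background subtraction, 124 and 151 with the background model on all spots, 134 and 57 with median centring, and 958 and 958 with the scanner's ratios or the value table. From single arrays they ranged from 434 to 611 and from 315 to 471. The fatty acid and droplet median was 0.23, 0.22, 0.54 and 0.71 in these 4 processings, 0.094 without the filter on dim probes, 0.49 with both populations above background, 0.44 over all passing probes, and 0.37 to 0.42 from single arrays. It was 0.22 with a filter on Cy3 alone, chosen after seeing the data. The sterol median ranged from -0.25 to 0.34 over the alternatives, and the gap between the 2 medians from -0.73 to -0.03, with the gap at -0.14 when Srebf1 counted as a sterol gene. Of 255 single ratios of members under alternatives, 233 kept their call or lack of one, 12 gained a call and 10 lost one. These counts do not measure stability, since many ratios merely repeated the reported value. That held for 24 without the filter on dim probes, 24 with the Cy3 filter and 15 with both populations above background. Averaging passing probes could alter only 2 members. The scanner's ratios and the value table gave equal values, so the same 6 members gained calls in both. Of the 233, 7 turned sign, all in members that were not called (Acsl3, Fasn, Fdft1 and Sc4mol). That count used the mean of the arrays, or 1 array where it stood alone, and hides disagreement between arrays. Under median centring every measured member except Acsl1, Ch25h, Cidea and Scd2 was negative on array 1 and positive on array 2. Elovl1, for example, then measured -1.29 and 2.80. Each log2 ratio already pairs the populations on 1 array, and with 1 replicate no test over pairs was possible.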

Other observations

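Fabp5, a gene well known from epidermis, was at background in both populations and with both dyes by its 1 probe, whereas Elovl1 and Fasn were well above background in every channel. Chromosome 19 holds the probes of 6 of the 44 members (Ch25h, Elovl3, Scd1, Scd2, Fads1 and Fads2), and the largest ratio in each direction within the set came from there, at 5.22 for Ch25h and -2.40 for Scd2.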
